A study of Mus musculus with 18 samples.

Results

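The comparison described here is that of mouse liver after ischemia-reperfusion with liver after sham surgery, with the genotypes mixed. Its members were all 18 libraries of the series, 9 from ischemia-reperfusion (IR) and 9 from sham surgery. The study used wild-type mice, Il22-/- mice and Il22bp-/- mice, with 3 samples for each of the 6 combinations of genotype and surgery. Each surgery group therefore mixed 3 wild-type livers with 6 knockout livers, and the wild-type response alone was not estimated. The libraries are headed IR or W with a number, and no header carries a genotype. The 9 libraries headed W were read as sham by elimination, because 9 sham samples remained once the 9 IR headers were assigned and only 6 samples of the series were wild type. No library was given a genotype from its expression values. The labels give no sex, age, strain background, ischemia time or reperfusion time. Nothing in them says whether the numbered samples came from separate animals, so that p-values measure the spread between these libraries.

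Ischemia-reperfusion deprives liver tissue of blood and then restores flow. Hypoxic hepatocytes switch to glycolysis and activate stress-response genes, and resident macrophages and damaged cells release cytokines that attract neutrophils. Interleukin-6 family cytokines and IL-22 act on hepatocytes through STAT3, which drives secretion of acute phase proteins. During such a response the hepatocyte commonly lowers genes for drug metabolism, bile acid synthesis and intermediary metabolism. IL-22BP, encoded by Il22ra2, is a soluble receptor that binds IL-22 and keeps it from its cell-surface receptor.

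In outline, the IR libraries held far more transcript from acute phase genes, neutrophil genes, immediate early genes, endoplasmic reticulum stress genes and matrix genes. They held less from genes of the cytochromes P450, lipid synthesis, bile acid transport, the respiratory chain, the cell cycle, lymphocytes and albumin. Lcn2, Saa1 and Saa2 rose by more than 6 on the log2 scale, and Upp2, Dbp and Cyp7a1 fell by more than 5, both with all libraries and without those set apart below.

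The libraries of both groups also differed in 2 measured features. First, Xist, the noncoding RNA of the inactive X chromosome, was present at 1751 to 5335 normalised counts in all 9 sham libraries, and the summed Y-linked genes Ddx3y, Eif2s3y, Uty and Kdm5d reached at most 2.07 there. Of the IR libraries, IR3, IR6 and IR9 had the same pattern, with Xist at 4305, 3772 and 2312. The other 6 held Y-linked reads, with sums of 444 to 1034. Among these, IR1, IR2, IR4 and IR7 had Xist at 11.5 or less, whereas IR5 and IR8 held both Xist (542 and 964) and Y-linked reads. The differences over all 18 libraries therefore average IR libraries with and without Y-linked reads, against sham libraries that held none above this level. The 3 IR libraries without Y-linked reads were also compared alone with the 9 sham libraries, called the 3-against-9 comparison. The genotypes of IR3, IR6 and IR9 are not known, so these 3 libraries may not hold the 3 genotypes in equal numbers. Where a value or call changes there, Y-linked reads, genotype and the smaller number of libraries cannot be told apart.

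**Figure D1:**
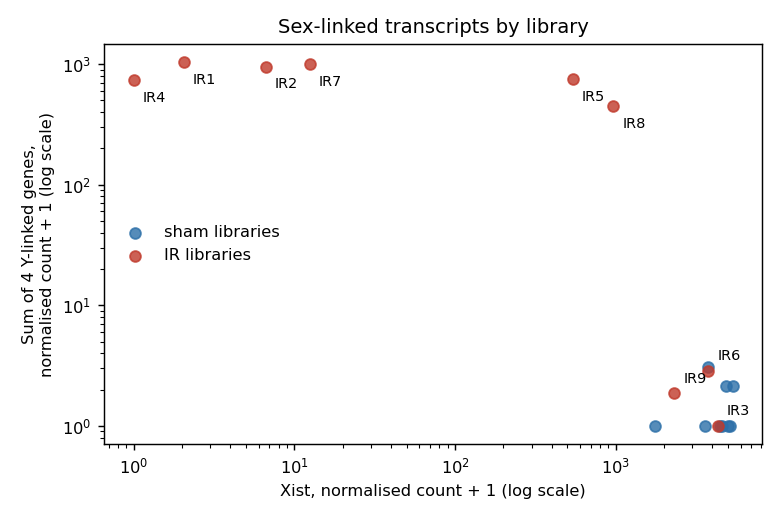
Xist (x axis) against the sum of 4 Y-linked genes (y axis), both as normalised count + 1 on log scales, with 1 point per library. All 9 sham libraries and IR3, IR6 and IR9 lie at the lower right, 4 IR libraries at the upper left, and IR5 and IR8 hold both kinds of transcript.

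Second, the difference between the groups varied with the base composition of the transcript. Among 12617 protein-coding genes with a transcript sequence, Spearman's rho across genes between the log2 difference and the GC content of the longest transcript was 0.471 (genes are not independent replicates, and no p is given). With the genes divided by GC content into 5 equal classes, in the lowest class (median 41.3%), 10.4% were higher and 69.6% lower in IR, with a median log2 difference of -0.69. In the highest class (median 57.8%), 63.8% were higher and 13.4% lower, with a median of 0.65. Measured per library against the sham mean, the highest class exceeded the lowest by 1.03 to 1.74 (log2) in the IR libraries and by -0.26 to 0.36 in the sham libraries, so the groups did not overlap. In the 3-against-9 comparison the medians of these classes were -0.64 and 0.59. Its part in the results below was not tested. Values from a fit in which each library was first centred within 20 bins of GC content are called GC-corrected. A value of either further fit is printed beside a gene where it gained or lost a call or turned its direction, and, for genes given with a standard error, where the fold difference moved by more than 1.5 times. Other named genes moved in size as well, as counted at the end.

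**Figure D2:**
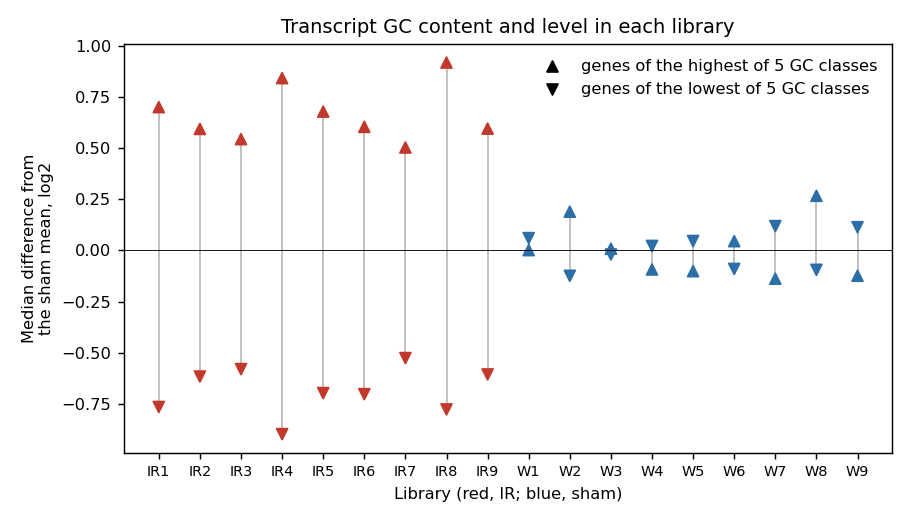
Median log2 difference from the sham mean (y axis) of protein-coding genes in the highest (upward triangles) and lowest (downward triangles) of 5 classes of transcript GC content, for each library (x axis; red, IR; blue, sham). The 2 classes lay 1.03 to 1.74 apart in the IR libraries, with the highest class above, and at most 0.36 apart in that direction in the sham libraries.

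Of 47729 listed genes, 13590 had a normalised count of at least 10 in at least 3 libraries and were tested on the log2(normalised count + 1) scale. On this scale a difference of 1 is a 2-fold change for a well-expressed gene, and the change of low genes is understated. A gene below 10 in every library of 1 group could pass this filter only through the other group. The direction of its difference was then partly set by the filter. At an adjusted p under 0.05, 5198 genes were higher in IR (38.2% of those tested) and 5051 were lower (37.2%). At least 2-fold differences were called for 2244 higher genes (16.5%) and 2377 lower genes (17.5%). The value of every IR library lay above every sham library for 2586 genes (19.0%) and below for 2656 genes (19.5%). The median log2 difference over all tested genes was 0.02 and the median absolute difference was 0.70. Against such a broad background, a list in which about 38% of members rise and 37% fall does not stand out, and each list below is to be read beside these shares. Likewise, genes below whose groups do not overlap are to be read beside the 19.0% and 19.5% separated over all tested genes.

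In the 3-against-9 comparison 4559 genes were higher (33.5%) and 4545 lower (33.4%). Of the 10249 genes called with all libraries, 8761 (85.5%) were called in the same direction without the 6 libraries. These were 96.2% of the 9104 calls of the smaller comparison, and 3 genes were called in opposite directions: Mup20, Mup7 and Susd4. The 9 sham libraries and the 3 IR libraries enter both fits, so this agreement is partly built in. After GC correction of the 12617 genes, 4583 were higher (36.3%) and 4528 lower (35.9%). The calls shared in direction with the uncorrected fit numbered 7149, or 74.5% of the uncorrected calls among those genes. Differences of 16-fold or more were called for 86 higher and 49 lower genes, and for 50 and 33 in the 3-against-9 comparison.

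**Figure D3:**
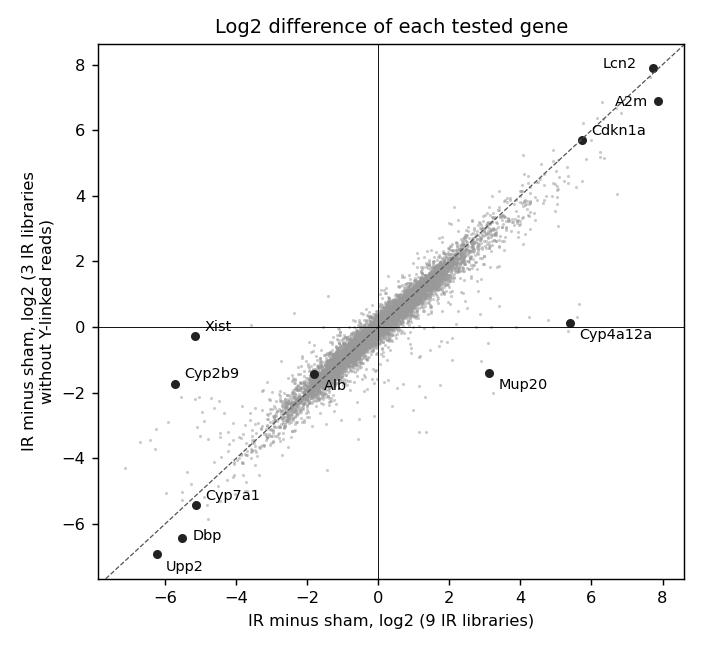
IR minus sham difference of each of the 13590 tested genes on the log2(normalised count + 1) scale, from all 9 IR libraries (x axis) and from the 3 IR libraries without Y-linked reads (y axis); the dashed line marks equal values. Most genes lie along the line, while Cyp4a12a, Mup20, Xist and Cyp2b9 lie far from it. Both axes use the same sham libraries, and the 3 IR libraries of the y axis are also among the 9 of the x axis.

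The first principal component held 68.1% of the variance and separated the groups, with coordinates of 39.3 to 101 in IR and -78.0 to -62.8 in sham. The second held 9.27%, and its range was wider in IR (-51.6 to 50.7) than in sham (-0.63 to 6.67). Gene by gene, the spread within IR was also larger: the median SD of log2 values was 0.345 in IR and 0.231 in sham, and the SD was larger in IR for 10113 genes (74.4%). The genotypes are mixed in both groups.

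The genes with the largest rise among separated genes of mean count 100 or more included A2m, Lcn2, Saa2, Saa1, Scara5, Cxcl2, Fam83a, Sprr1a and Syt12. A2m, a protease inhibitor of plasma, ran from 0 to 4.44 in the sham libraries (median 1.04) and from 43.8 to 1264 in the IR libraries (median 514). Lcn2, an iron-scavenging protein that binds bacterial siderophores, ran from 148 to 301 in the sham libraries (median 196) and from 29268 to 62617 in the IR libraries (median 51080), a log2 difference of 7.74 (SE 0.169, adjusted p = 7.14e-18). The 9 Lcn2 values in IR all lay far above the sham range (the rule admits only separated genes), and the log2 difference was 7.89 in the 3-against-9 comparison.

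Fam83a ran from 1.04 to 9.19 in the sham libraries (median 2.31) and from 74.3 to 721 in the IR libraries (median 322), and Syt12, a synaptotagmin, ran from 2.07 to 12.7 in the sham libraries (median 6.76) and from 210.2 to 1150.3 in the IR libraries (median 487). Sprr1a, a small proline-rich protein of stressed epithelia, ran from 0 to 3.15 in the sham libraries (median 0) and from 4.90 to 1292 in the IR libraries (median 109). Sham libraries were near 0 for A2m, Sprr1a, Scara5 and Cxcl2, so the size of their log2 differences (7.87, 6.23, 6.73 and 6.36) depends on the pseudocount of 1; in the 3-against-9 comparison they were 6.89, 5.18, 4.06 and 5.14. Scara5, a scavenger receptor for ferritin, ran from 0 to 4.51 in the sham libraries (median 1.10) and from 15.5 to 862 in the IR libraries (median 347).

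The genes with the largest fall under the same rule included Cyp3a16, Cyp2b13, Upp2, Hao2, Cyp2a4, Cyp2b9, Cyp3a44, Dbp and Acot3. Upp2, a liver uridine phosphorylase, fell from 8564 to 15580.3 (median 11169) in the sham libraries to 69.8 to 417 (median 132) in the IR libraries, a log2 difference of -6.23 (SE 0.298, adjusted p = 4.90e-13). Acot3, a peroxisomal acyl-CoA thioesterase, ran from 1548 to 2842 in the sham libraries (median 2036) and from 11.2 to 316 in the IR libraries (median 53.6). For both, no IR library reached the sham range, which the rule requires, and the differences were -6.93 and -4.80 in the 3-against-9 comparison. Cyp3a16, Cyp2b13, Cyp2a4, Cyp2b9 and Cyp3a44 are known for higher expression in female than in male mouse liver and are described with the sex-biased genes.

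For the 2 genes that rose most and the 2 that fell most among those with a RefSeq start region, the 250 bases before the start are shown so that the sequence can be read beside the change (GRCm38.p6, 5′ to 3′ on the gene's strand). Lcn2 lies on the minus strand at chr2:32387740-32387989, Saa2 on the plus strand at chr7:46751583-46751832, Cyp3a16 on the minus strand at chr5:145469724-145469973 and Cyp2b13 on the plus strand at chr7:26061245-26061494. Capitals mark a match to any of 6 motifs searched on both strands: TGANTCA (AP-1), TGACGTCA (cyclic AMP response element), GGGANTTTC (part of an NF-kB site), GAANNTTC (heat shock element core), CACGTG (E-box) and TATAAA (core of a TATA box).
Lcn2: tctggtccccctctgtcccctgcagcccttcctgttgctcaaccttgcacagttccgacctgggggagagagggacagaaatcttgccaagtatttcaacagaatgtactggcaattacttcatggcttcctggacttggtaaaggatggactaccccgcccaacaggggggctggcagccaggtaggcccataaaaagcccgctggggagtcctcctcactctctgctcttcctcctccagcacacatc
Saa2: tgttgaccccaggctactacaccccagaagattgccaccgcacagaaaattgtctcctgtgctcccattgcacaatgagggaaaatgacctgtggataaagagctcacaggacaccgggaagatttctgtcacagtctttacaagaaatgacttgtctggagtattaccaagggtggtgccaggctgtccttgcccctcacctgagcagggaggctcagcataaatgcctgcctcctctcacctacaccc
Cyp3a16: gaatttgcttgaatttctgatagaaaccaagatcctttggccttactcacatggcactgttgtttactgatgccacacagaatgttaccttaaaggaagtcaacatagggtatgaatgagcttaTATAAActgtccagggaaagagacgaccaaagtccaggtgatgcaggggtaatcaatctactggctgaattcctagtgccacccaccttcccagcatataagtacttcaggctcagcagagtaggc
Cyp2b13: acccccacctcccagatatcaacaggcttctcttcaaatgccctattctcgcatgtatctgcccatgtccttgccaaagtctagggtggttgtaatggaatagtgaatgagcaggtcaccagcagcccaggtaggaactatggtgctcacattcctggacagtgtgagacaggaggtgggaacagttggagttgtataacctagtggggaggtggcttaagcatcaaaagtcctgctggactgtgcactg
The only match was TATAAA in the Cyp3a16 window, 126 to 121 bases before the start, a sequence present in 12.97% of 27025 RefSeq start regions of this length. The other motifs were present in 6.87% (AP-1), 1.62% (cyclic AMP response element), 0.977% (NF-kB part), 6.78% (heat shock element core) and 6.05% (E-box) of these regions. Absence of a match says only that these letters are not in the window.

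Acute phase and STAT3 target genes rose as a group. Of 27 tested members, 24 were higher in IR, 0 were lower and 3 (Saa4, Crp and Hamp) did not pass the test. Hamp was higher in the 3-against-9 comparison (0.78, adjusted p = 0.00296) and Crp after GC correction (0.61, adjusted p = 0.0124). The median log2 difference of the list was 1.95, and 24 members were higher in the 3-against-9 comparison and after GC correction as well. The summed transcripts of the list took 2.05 to 2.97% of the normalised total in sham and 10.8 to 22.3% in IR, with medians of 2.72% and 18.3%. Saa2, a serum amyloid A protein of high-density lipoprotein, ran from 581 to 1151 in the sham libraries (median 673) and from 49688 to 299297 in the IR libraries (median 188635). Saa1 ran from 842 to 1384 in the sham libraries (median 1036) and from 42894 to 221711 in the IR libraries (median 143086). These near-identical copies could share reads, depending on how the authors counted them, but both rose by more than 6 on the log2 scale (6.69 and 7.65).

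The fibrinogen chains were among the most abundant transcripts of the liver. Fga ran from 29392 to 58734 in the sham libraries (median 49001) and from 202750 to 466905 in the IR libraries (median 290302), Fgb from 39788 to 69382 in the sham libraries (median 59950.3) and from 165180 to 344751 in the IR libraries (median 239950) and Fgg from 44027 to 65173 in the sham libraries (median 56767) and from 114387 to 273842 in the IR libraries (median 172078), and none of the 3 overlapped between groups. Their log2 differences were 2.62, 2.00 and 1.66. Among other secreted acute phase proteins, the log2 differences were 3.48 for Orm2 (orosomucoid), 4.05 for Serpina3n, 2.92 for Hp (haptoglobin) and 1.13 for Hpx (hemopexin). Socs3, the feedback inhibitor of STAT3 signalling, rose by 4.19 (SE 0.252, adjusted p = 1.09e-11, 3.46 GC-corrected).

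The IL-22 axis itself was sparsely measured. Il22 was at 0 in all 18 libraries, which allows up to 3 reads in each library of 10176617 to 12763837 reads, counting error only. Its paralogue Iltifb, which can share reads with Il22, reached at most 7.35 in an IR library and 1.15 in a sham library. Neither was tested. Of the 6 tested members, 3 rose and 0 fell. Il22ra1, the ligand-binding receptor chain, ran from 8.78 to 20.8 in the sham libraries (median 15.0) and from 50.6 to 148 in the IR libraries (median 60.7), a log2 difference of 2.34 (SE 0.224, adjusted p = 8.99e-09). Stat3, the transcription factor downstream, ran from 759.7 to 892 in the sham libraries (median 821) and from 2461 to 3843 in the IR libraries (median 2846), a log2 difference of 1.82 (SE 0.0745, adjusted p = 7.25e-14). Every IR library exceeded every sham library for both genes, and the GC-corrected differences were 1.77 and 1.48.

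Tyk2, a receptor-associated kinase, was higher by 0.71 (adjusted p = 9.36e-07), but the GC-corrected difference was 0.08 (adjusted p = 0.412). Il10rb, the shared receptor chain, ran from 76.8 to 116 in the sham libraries (median 92.2) and from 79.5 to 127 in the IR libraries (median 112) and Jak1 ran from 1103 to 1476 in the sham libraries (median 1233) and from 1001 to 1443 in the IR libraries (median 1138). These ranges overlapped, with log2 differences of 0.15 (SE 0.106, adjusted p = 0.199) and -0.04 (SE 0.0804, adjusted p = 0.659). Il22ra2, which encodes IL-22BP and is 1 of the genes deleted in the study, spanned 0 to 56.0 in sham and 0 to 47.6 in IR, and the difference did not pass (adjusted p = 0.963). Its values fell into separate sets. W7, W8 and W9 were at 29.9, 56.0 and 51.8, and IR7, IR8 and IR9 at 41.0, 47.6 and 32.6. The other 12 libraries were at 0 to 1.02, so a mean over 9 libraries describes neither set. In each surgery group 3 of 9 libraries thus held the transcript, whereas 6 of 9 samples are labelled with a genotype other than Il22bp-/-. No genotype was read from these values.

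Chemokines and inflammatory cytokines moved in both directions. Of 38 listed genes 29 were tested, of which 17 rose and 7 fell (15 and 7 in the 3-against-9 comparison), with a median log2 difference of 1.04. Neutrophil-attracting CXC chemokines were among those that rose: Cxcl2 ran from 0 to 3.46 in the sham libraries (median 2.07) and from 15.7 to 1094 in the IR libraries (median 210.2), and the differences were 5.73 for Cxcl3, 4.28 for Cxcl1 and 4.13 for Cxcl5. The interleukin-6 family cytokines Osm, Lif and Il6 rose by 4.27, 4.16 and 1.84 (for Il6 1.02, adjusted p = 0.135, in the 3-against-9 comparison), and the monocyte chemokines Ccl2 and Ccl7 by 2.24 and 4.24.

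The members that fell were Cxcl9, Cxcl12, Cxcl16, Ccl9, Ccl24, Il1a and Il18. The call for Cxcl9 was lost after GC correction (-0.37, adjusted p = 0.334). Il18, an interleukin-1 family cytokine made by Kupffer cells and epithelia, ran from 126 to 213 in the sham libraries (median 171) and from 17.2 to 38.7 in the IR libraries (median 34.7), a log2 difference of -2.36 (SE 0.158, adjusted p = 5.22e-11). Cxcl12, the homeostatic chemokine with the highest level of the list, ran from 3267 to 4547 in the sham libraries (median 4064) and from 1085 to 4554 in the IR libraries (median 2685). Its groups overlapped, and the difference was -0.85 (SE 0.221, adjusted p = 0.00164). Csf3, the granulocyte growth factor, was not tested; it was at 0 in every sham library and reached 53.6 in IR (median 8.59).

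NF-kB feedback and adhesion genes rose in 15 of 20 cases and fell in 1, with a median of 1.51 (0.86 after GC correction, with the same counts). Cd14, the lipopolysaccharide co-receptor, ran from 28.2 to 48.8 in the sham libraries (median 44.6) and from 629.7 to 4402 in the IR libraries (median 1534). Its log2 difference was 5.30 (SE 0.329, adjusted p = 1.65e-11). The endothelial adhesion genes Sele, Icam1 and Selp rose by 2.77, 2.10 and 1.82, and the feedback inhibitor Tnfaip3 by 2.00. Birc3, an inhibitor of apoptosis, was the member that fell (-0.58, SE 0.136, adjusted p = 7.11e-04). Nfkbia, Rel, Vcam1 and Tlr2 did not pass, with differences of 0.45, 0.24, -0.43 and 0.23, but Rel was higher after GC correction (0.84, adjusted p = 8.19e-05).

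Interferon-stimulated genes went mostly the other way. Of 24 members 15 fell and 4 rose, with a median of -0.73. In the 3-against-9 comparison 18 fell and 1 rose (median -1.03), and after GC correction 16 of 23 fell and 2 rose. Ifi44 ran from 117 to 174 in the sham libraries (median 128) and from 15.6 to 97.2 in the IR libraries (median 26.8), a log2 difference of -2.15 (SE 0.250, adjusted p = 1.48e-07, -2.90 in the 3-against-9 comparison and -1.44 GC-corrected). Ifit1, Ifit2, Ifit3 and Usp18 fell, with log2 differences of -1.46, -1.69, -1.18 and -1.29. Stat2, a component of the interferon-activated transcription complex, was 1 of the 4 that rose (1.23, adjusted p = 7.34e-08), with Mx2, Rsad2 and Oasl1. The other 3 did not pass in the 3-against-9 comparison (adjusted p = 0.139, 0.15 and 0.637), nor did Oasl1 after GC correction (adjusted p = 0.375). Iigp1, the member with the highest level and a GTPase against intracellular pathogens, was lower (log2 difference -1.03, adjusted p = 2.88e-06), but the GC-corrected difference was -0.09 (adjusted p = 0.535).

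Markers of blood and resident cells were measured in whole liver, where fewer cells of a type and less RNA per cell cannot be told apart. Of 20 neutrophil markers 16 were tested, 14 rose and 1 fell, with a median log2 difference of 3.93 (3.22 in the 3-against-9 comparison and 4.06 after GC correction). Their summed level was 0.0012 to 0.0022% of the total in sham and 0.0044 to 0.059% in IR. S100a9, an abundant calcium-binding protein of neutrophils, ran from 14.5 to 57.5 in the sham libraries (median 30.0) and from 124 to 1589.5 in the IR libraries (median 453), a log2 difference of 4.07 (SE 0.363, adjusted p = 3.44e-09, 3.34 in the 3-against-9 comparison). Il1r2, the decoy interleukin-1 receptor, was at 0 to 1.02 in sham and ran from 20.6 to 354 (median 71.3) in IR. Ly6g, the defining surface marker, was too low to test, at 0 to 1.11 in sham and 1.84 to 10.5 in IR. Granule genes of immature neutrophils were scarce and did not all behave alike. Mpo, Camp and Ltf stayed below the filter, while Ngp and Elane rose by 2.42 and 1.68 (adjusted p = 4.26e-04 and 0.00332), Elane with an adjusted p of 0.0572 after GC correction. Ngp ran from 0 to 5.77 in the sham libraries (median 3.15) and from 4.09 to 102 in the IR libraries (median 13.8). Like Il1r2, it was below 10 in every sham library and passed the filter only through IR libraries. For such members a rise is partly built in, so the count and median of this list depend in part on the filter. Fpr1, a chemotactic receptor, was the marker that fell (-0.78, adjusted p = 9.40e-04).

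Kupffer cell and monocyte markers fell in 12 of 18 cases and rose in 4, with a median of -0.83. Of the markers of resident Kupffer cells, Vsig4, Timd4, Clec4f and Cd5l were among those that fell, Marco rose and Cd163 did not pass. Vsig4, a complement receptor, ran from 669 to 1020.5 in the sham libraries (median 937) and from 84.8 to 292 in the IR libraries (median 187), a log2 difference of -2.31 (SE 0.171, adjusted p = 2.14e-10). Clec4f ran from 2045 to 2955 in the sham libraries (median 2682) and from 779 to 1381 in the IR libraries (median 1042), again with no overlap. The 4 that rose were Cx3cr1, Marco, Cd68 and Ccr2, of which Ccr2 did not pass in the 3-against-9 comparison (adjusted p = 0.381). Cx3cr1, a receptor of monocytes, ran from 2.97 to 12.4 in the sham libraries and from 18.9 to 62.3 in the IR libraries. The summed list took 0.090 to 0.125% of the total in sham and 0.040 to 0.085% in IR.

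Lymphocyte and natural killer cell markers fell in 15 of 17 tested cases and rose in none, with a median of -1.89 (14 fell in the 3-against-9 comparison). Ms4a1, the B-cell antigen CD20, ran from 18.5 to 40.6 (median 21.4) in sham and was at 0 to 1.73 in IR. It passed the filter only through sham libraries. Ighm, the immunoglobulin mu chain, ran from 64.6 to 166 in the sham libraries (median 99.5) and from 18.4 to 48.6 in the IR libraries (median 26.4). Gzma and Klrd1, genes of natural killer cells, fell, with log2 differences of -2.23 and -2.28, and the T-cell gene Cd3g fell by 2.40. Cd4 and Il7r did not pass, with differences of -0.47 and -0.23, but Cd4 was lower after GC correction (-0.81, adjusted p = 0.00369). All these transcripts were scarce, with a summed level of 0.0026 to 0.0046% of the total in sham.

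Endothelial markers were divided, with 7 of 20 higher and 11 lower, and 4 higher and 13 lower after GC correction. Genes of the liver sinusoid lay on both sides: Clec4g, Oit3, Dnase1l3, Fcgr2b and Stab2 were lower, and Stab1 and Lyve1 were higher (0.31 and 0.55, adjusted p = 0.00167 and 0.0353). Stab1, a scavenger receptor, was lower after GC correction (-0.32, adjusted p = 7.58e-04). Clec4g, a sinusoidal lectin, ran from 1005 to 1626 in the sham libraries (median 1455) and from 134 to 592 in the IR libraries (median 411), a log2 difference of -2.05 (SE 0.224, adjusted p = 6.12e-08). Vwf, the clotting factor of larger vessels, rose and ran from 36.2 to 66.3 in the sham libraries (median 55.5) and from 92.0 to 238 in the IR libraries (median 149). Eng, a TGF-beta co-receptor, was higher by 0.32 (adjusted p = 0.00875) but lower after GC correction (-0.31, adjusted p = 0.00259), so its direction depends on that step.

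Stellate cell and matrix genes rose in 14 of 21 cases and fell in 5, with a median of 1.32 (12 and 4, median 0.75, after GC correction). Thbs1, the matrix protein thrombospondin, ran from 6.29 to 18.6 in the sham libraries (median 10.1) and from 143 to 3074 in the IR libraries (median 628), a log2 difference of 5.84 (SE 0.456, adjusted p = 4.72e-10, 5.12 in the 3-against-9 comparison). Fn1 (fibronectin), the most abundant member, ran from 7082 to 11323 in the sham libraries (median 10957) and from 22219.6 to 52364 in the IR libraries (median 35581). Timp1, an inhibitor of matrix proteases, rose by 5.04, Plat by 3.82, Col1a1 by 3.26 and Acta2 by 2.42. The stellate cell markers moved in both directions. Des (desmin) and Pdgfrb, a receptor of growth factor PDGF, rose by 1.22 and 1.90. Lrat, which esterifies retinol in these cells, fell and ran from 324 to 579 in the sham libraries (median 463) and from 78.2 to 206 in the IR libraries (median 112). The other members that fell were Reln, Dcn, Lum and Hgf, with log2 differences of -1.03, -1.09, -1.88 and -1.41, and the call for Dcn was lost after GC correction (-0.15, adjusted p = 0.0993).

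Cholangiocyte markers rose in 7 of 10 tested cases and fell in 1, with a median of 1.47. Sox9, a transcription factor of bile duct cells and of stressed hepatocytes, ran from 16.9 to 30.0 in the sham libraries (median 19.9) and from 229 to 2374 in the IR libraries (median 845), a log2 difference of 5.22 (SE 0.334, adjusted p = 2.52e-11, 4.44 in the 3-against-9 comparison). Spp1 (osteopontin) ran from 319 to 649 in the sham libraries (median 373) and from 555 to 11989 in the IR libraries (median 3005), and its groups overlapped, with differences of 2.98 and, in the 3-against-9 comparison, 2.16. Krt19 rose by 1.44 (GC-corrected 0.81, adjusted p = 0.0811) and Epcam by 1.20, while Pkhd1, a gene of the cholangiocyte cilium, was lower (-0.66, adjusted p = 8.38e-04). Of 7 tested erythroid genes, 1 rose and 1 fell, with a median of 0.05, but in the 3-against-9 comparison 1 rose and 3 fell, with a median of -0.88. Hbb-bs, an adult beta globin, ran from 270.3 to 2191 in the sham libraries (median 711) and from 57.8 to 2035 in the IR libraries (median 517). It did not pass with all libraries (-0.68, adjusted p = 0.242) and was lower in the 3-against-9 comparison (-1.67, adjusted p = 0.0235).

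**Figure D4:**
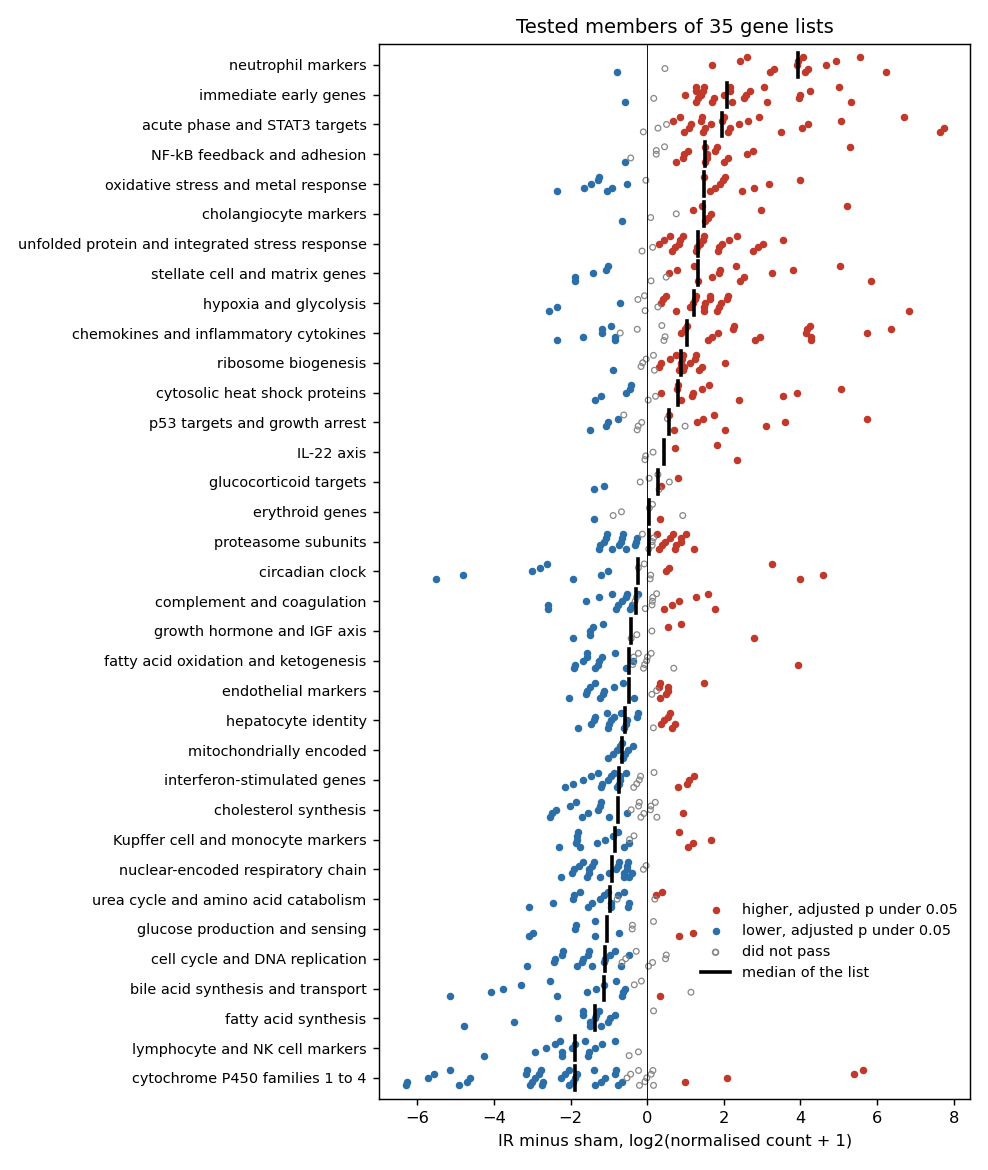
IR minus sham difference on the log2(normalised count + 1) scale (x axis) of each tested member of 35 gene lists (rows, ordered by median; 1 point per gene; black bars mark medians). Red points were higher and blue points lower at an adjusted p under 0.05, and open points did not pass. With all libraries, neutrophil markers have the highest median (3.93) and cytochromes P450 the lowest (-1.90), close to lymphocyte and natural killer cell markers (-1.89). Without the IR libraries that hold Y-linked reads, the median of cytochromes P450 was -1.20. The lowest median was then that of lymphocyte and natural killer cell markers (-1.65). Some members, such as Il1r2 and Ms4a1, passed the filter only through the group in which they were high.

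Immediate early genes, which are transcribed within minutes of a stimulus, rose in 24 of 26 tested cases and fell in 1 (20 and 0 in the 3-against-9 comparison, 20 and 1 after GC correction), with a median of 2.08. Fosl1, a subunit of the AP-1 transcription factor, ran from 1.15 to 6.66 in the sham libraries (median 4.20) and from 11.8 to 896 in the IR libraries (median 153), a log2 difference of 5.32 (SE 0.584, adjusted p = 6.65e-08, 4.40 in the 3-against-9 comparison and 4.59 GC-corrected). The library headed IR3 was the low one, at 11.8. Junb, the most abundant member, ran from 192 to 704 in the sham libraries (median 415) and from 997 to 7461 in the IR libraries (median 1981). Fosb, Ier3, Atf3 and Fos rose by 5.02, 4.26, 3.98 and 3.95. Klf10 was the member that fell (-0.59, SE 0.259, adjusted p = 0.0446). The call was lost in the 3-against-9 comparison (-0.48, adjusted p = 0.108) and after GC correction (-0.46, adjusted p = 0.126).

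Of 19 cytosolic and mitochondrial heat shock genes, 12 rose and 5 fell (15 and 3 after GC correction). The stress-inducible Hsp70 genes Hspa1a and Hspa1b are near-identical copies that could share reads. Hspa1a ran from 0 to 5.18 in the sham libraries (median 1.13) and from 4.90 to 1399.7 in the IR libraries (median 57.9), a log2 difference of 5.06 (SE 0.730, adjusted p = 2.88e-06, 4.33 GC-corrected), and its difference was 3.09 in the 3-against-9 comparison. Hsp90ab1, the constitutive Hsp90, ran from 4911 to 5951 in the sham libraries (median 5429.6) and from 10571 to 16141 in the IR libraries (median 11878), with no overlap. Hspb1 and Bag3 rose by 3.54 and 2.39. The mitochondrial chaperonin pair Hspe1 and Hspd1 fell, Hspe1 running from 1743 to 2715 in the sham libraries (median 1996) and from 629.8 to 1339 in the IR libraries (median 730.3) and Hspd1 differing by -0.46; Dnaja1 fell by 1.21.

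Unfolded protein and integrated stress response genes rose in 22 of 24 cases and fell in none (21 and 0 in the 3-against-9 comparison, 21 and 2 after GC correction), with a median of 1.33. Hspa5, the chaperone BiP of the endoplasmic reticulum, ran from 6132 to 9470.1 in the sham libraries (median 8501) and from 17988 to 26933 in the IR libraries (median 22594), a log2 difference of 1.48 (SE 0.104, adjusted p = 1.05e-10). Asns (asparagine synthetase), a target of ATF4, ran from 1.11 to 14.3 in the sham libraries (median 7.34) and from 30.9 to 293 in the IR libraries (median 104), a log2 difference of 3.54 (SE 0.436, adjusted p = 3.45e-07, 2.34 in the 3-against-9 comparison). Creld2, Hyou1 and Sdf2l1, which act in the endoplasmic reticulum, rose by 3.03, 2.90 and 2.76. Ddit3, which encodes CHOP, rose by 1.88 and Fgf21 by 2.34. Trib3 and Herpud1 did not pass (0.14 and -0.14), but were lower after GC correction (-0.59 and -0.50, adjusted p = 0.0104 and 0.00796). The list took 0.296 to 0.445% of the total in sham and 0.811 to 1.30% in IR.

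Oxidative stress and metal response genes moved in both directions, with 10 of 19 higher and 8 lower. Slc7a11, the cystine transporter, was at 0 to 4.14 in sham and ran from 6.85 to 74.5 (median 21.1) in IR. Gsta1 and Srxn1 rose by 3.18 and 2.78, Hmox1 (heme oxygenase 1) by 1.97 and Gclc by 1.78. The metallothionein Mt1 ran from 5789 to 18381 in the sham libraries (median 10089.9) and from 26429 to 73183 in the IR libraries (median 39540.4), a log2 difference of 2.03 (SE 0.224, adjusted p = 7.13e-08). The antioxidant enzymes Cat, Gpx1, Gpx4, Sod1 and Prdx1 fell, with log2 differences of -1.28, -1.26, -1.04, -0.92 and -1.65. Gsta2 ran from 57.7 to 255 in the sham libraries (median 136) and from 13.8 to 58.4 in the IR libraries (median 24.6), and Nqo1 fell by 1.47.

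Hypoxia and glycolysis genes rose in 19 of 26 tested cases and fell in 3, with a median of 1.23 (16 and 4 in the 3-against-9 comparison; 15 and 3, median 0.79, after GC correction). Ldha, the lactate dehydrogenase of anaerobic glycolysis, ran from 4839.6 to 8353 in the sham libraries (median 6179) and from 10175 to 20863 in the IR libraries (median 16425), a log2 difference of 1.25 (SE 0.140, adjusted p = 8.64e-08). The glucose transporter Slc2a1, pyruvate kinase Pkm and Hk2 rose by 2.12, 1.88 and 1.48. Not all hypoxia targets rose: Pdk1, which restrains entry of pyruvate into the mitochondrion, ran from 1495 to 1984 in the sham libraries (median 1806) and from 227 to 405 in the IR libraries (median 339), a log2 difference of -2.55 (SE 0.109, adjusted p = 1.22e-13). The mitophagy receptors Bnip3 and Bnip3l also fell, with differences of -2.35 and -0.72, and the call for Bnip3l was lost after GC correction (-0.12, adjusted p = 0.279). Vegfa did not pass, with a difference of 0.28 (adjusted p = 0.073).

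Among 19 p53 targets and growth arrest genes, 9 rose and 4 fell, with a median of 0.56 (8 and 6, median 0.10, in the 3-against-9 comparison). Cdkn1a, the cell-cycle inhibitor p21, ran from 11.1 to 51.8 in the sham libraries (median 25.2) and from 649.5 to 3527 in the IR libraries (median 1412), a log2 difference of 5.74 (SE 0.331, adjusted p = 6.09e-12), with no overlap and a 3-against-9 difference of 5.69. Gadd45g, Gadd45b and Tnfrsf10b rose by 3.59, 3.09 and 2.02. The apoptosis genes Bbc3 and Pmaip1 did not pass (-0.14 and -0.24), but Bbc3 was lower in the 3-against-9 comparison (-0.65, adjusted p = 0.0443) and after GC correction (-0.81, adjusted p = 7.00e-04). Sesn1 ran from 212 to 299 in the sham libraries (median 246) and from 62.7 to 126 in the IR libraries (median 91.9), and Ccng1, Trp53inp1 and Fas fell, with log2 differences of -1.02, -1.08 and -0.76, of which Trp53inp1 did not pass after GC correction (-0.14, adjusted p = 0.507).

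Cell cycle and DNA replication genes fell in 17 of 24 tested cases and rose in none, with a median of -1.11 (20 fell after GC correction). Cdk1, the kinase that drives mitosis, ran from 53.5 to 106 in the sham libraries (median 83.9) and from 4.72 to 14.3 in the IR libraries (median 7.73), a log2 difference of -3.15 (SE 0.195, adjusted p = 1.62e-11). Ccnd1 (cyclin D1), the most abundant member, ran from 952 to 1657 in the sham libraries (median 1365) and from 90.9 to 470.3 in the IR libraries (median 262). Its difference was -2.44 with all libraries and -1.48 in the 3-against-9 comparison. Mki67 and Top2a, which mark dividing cells, fell, with log2 differences of -2.22 and -2.40. Ccne1, Cdt1, Plk1 and Aurka were among the 7 that did not pass, with differences of 0.48, 0.50, -0.56 and 0.14, but Plk1 was lower after GC correction (-1.13, adjusted p = 5.59e-04).

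Ribosome biogenesis genes rose in 17 of 23 cases and fell in 1, with a median of 0.88. Rrp12, a pre-ribosome export factor, ran from 39.9 to 73.6 in the sham libraries (median 65.4) and from 151 to 506 in the IR libraries (median 223), a log2 difference of 2.04 (SE 0.216, adjusted p = 4.07e-08). Npm1 (nucleophosmin) was the member that fell and ran from 855 to 1261 in the sham libraries (median 1034) and from 333 to 792 in the IR libraries (median 550.3), with differences of -0.89 and, GC-corrected, -0.29. Ncl (nucleolin), the most abundant member, was higher by 0.32 (adjusted p = 0.0178). The call was lost in the 3-against-9 comparison (0.24, adjusted p = 0.178), and the difference was larger after GC correction (0.80, adjusted p = 2.56e-06).

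The 31 proteasome genes had a median near 0 (0.04), with 12 higher and 14 lower. Separating them by particle, a division made after the values were seen, 12 of 14 genes of the catalytic core particle (20S) fell and 1 rose, while 11 of 17 genes of the regulatory particle (19S) rose and 2 fell. The medians were -0.64 and 0.45, and -0.58 and 0.39 after GC correction. Core transcripts were also shorter, with a median length of 1220 bases against 1983. Psma3, a core subunit, ran from 378 to 718 in the sham libraries (median 526) and from 189 to 270.3 in the IR libraries (median 225), a log2 difference of -1.26 (SE 0.104, adjusted p = 1.06e-09, -0.55 GC-corrected). Psmd3, a regulatory subunit, ran from 650.3 to 1203 in the sham libraries (median 817) and from 1629 to 2453 in the IR libraries (median 1893), a log2 difference of 1.23 (SE 0.109, adjusted p = 3.14e-09). Neither overlapped between the groups. Psmb4, the most abundant core gene, differed by -0.28 (adjusted p = 0.00382), did not pass in the 3-against-9 comparison (-0.23, adjusted p = 0.0998) and was lower by more after GC correction (-0.62, adjusted p = 1.14e-06).

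The cytochromes P450 of families 1 to 4 fell in 32 of 45 tested cases and rose in 4, with a median of -1.90. In the 3-against-9 comparison 33 fell and 0 rose, with a median of -1.20, and after GC correction 37 fell and 3 rose. The list took 1.52 to 2.07% of the total in sham and 0.690 to 0.987% in IR. Cyp2e1, the ethanol- and acetaminophen-metabolising enzyme, ran from 37495 to 69959 in the sham libraries (median 57492) and from 13718 to 37386 in the IR libraries (median 22203), a log2 difference of -1.40 (SE 0.172, adjusted p = 3.29e-07). Cyp3a11, Cyp2c29 and Cyp4a14 fell, with log2 differences of -2.93, -1.94 and -2.26 with all libraries and of -2.41, -1.86 and -1.20 in the 3-against-9 comparison. Members of these families are similar in sequence and could share reads.

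The 4 P450 genes that rose were Cyp4a12a, Cyp4a12b, Cyp2d9 and Cyp2u1, and none was called in the 3-against-9 comparison, nor Cyp2u1 after GC correction (adjusted p = 0.1). Cyp4a12a, known for higher expression in male liver, ran from 0 to 12.4 (median 2.07) in sham. It was 0, 4.90 and 5.51 in the 3 IR libraries without Y-linked reads and 314 to 1237 (median 1054) in the 6 with them. Mup20, a major urinary protein of males, was 249.6 to 681 (median 362) in sham, 106, 127 and 212 in the 3 libraries and 6682 to 27222 (median 17216) in the 6. Its difference was 3.12 (adjusted p = 0.00956) with all libraries and -1.40 (adjusted p = 1.39e-04) in the 3-against-9 comparison, so its direction depends on which IR libraries enter. Cyp2d9 and C6, a complement gene, likewise changed from 2.08 and 1.76 to -0.35 and -0.43, of which the latter values did not pass. These sex-biased genes were chosen after their values were seen.

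Genes known for higher expression in female liver, such as Cyp2b9, fell in both comparisons, but by different amounts. Cyp2b9 was 3069.6 to 5283 (median 4480.1) in sham, 1071, 1413 and 1473 in the 3 IR libraries without Y-linked reads and 1.02 to 679.7 (median 3.80) in the 6 with them. Its log2 difference was -5.72 with all libraries and -1.73 (adjusted p = 1.02e-07) in the 3-against-9 comparison. Cyp3a16, Cyp2b13, Cyp2a4 and Cyp3a44 went from -6.30, -6.27, -5.93 and -5.56 to -3.73, -3.10, -2.88 and -2.15.

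Genes of bile acid synthesis and transport fell in 13 of 17 tested cases and rose in 1. Cyp7a1, the rate-limiting enzyme of bile acid synthesis, ran from 1908 to 6350.3 in the sham libraries (median 4130.3) and from 26.6 to 371 in the IR libraries (median 106), a log2 difference of -5.14 (SE 0.450, adjusted p = 2.54e-09, -4.43 GC-corrected), with no overlap and a 3-against-9 difference of -5.43. The uptake carriers Slc10a1, Slco1b2 and Slco1a4 fell, with log2 differences of -2.35, -3.29 and -4.09, and the export pump Abcb11 fell by 1.57. Slc27a5, which conjugates bile acids to CoA, ran from 9728 to 14194 in the sham libraries (median 11718) and from 6727 to 9315 in the IR libraries (median 7785). Abcc3, a basolateral exporter, was the member that rose (0.32, adjusted p = 0.0213), but its GC-corrected difference was -0.08 (adjusted p = 0.598). Cyp8b1 did not pass (adjusted p = 0.792). Cyp7b1, an enzyme of the alternative pathway known for higher expression in male liver, did not pass with all libraries (adjusted p = 0.142), was lower in the 3-against-9 comparison (-1.80, adjusted p = 5.58e-06) and higher after GC correction of all libraries (1.75, adjusted p = 0.0337). Its level was 283 to 696 (median 379.6) in sham, 77.2, 129.7 and 145 in the 3 IR libraries without Y-linked reads and 1273 to 6093 (median 2359.8) in the 6 with them.

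Urea cycle and amino acid catabolism genes fell in 16 of 20 cases and rose in 2, with a median of -0.98. Cps1, which catalyses the first step of the urea cycle, ran from 25237 to 44368 in the sham libraries (median 34302) and from 8798 to 21431 in the IR libraries (median 11553), a log2 difference of -1.44 (SE 0.155, adjusted p = 4.95e-08). Otc, Oat and Tdo2 fell, with log2 differences of -2.45, -1.92 and -1.76. Nags, whose product activates Cps1, was higher by 0.40 (adjusted p = 0.00645). It did not pass in the 3-against-9 comparison (0.34, adjusted p = 0.0612) and was lower after GC correction (-0.27, adjusted p = 0.0174).

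Lipid synthesis genes were lower in IR. Of 15 fatty acid synthesis genes 14 fell and none rose, with a median of -1.36 (14 also in the 3-against-9 comparison and after GC correction). Thrsp (Spot 14), a lipogenic regulator, ran from 6984 to 32871 in the sham libraries (median 13392) and from 181 to 2226 in the IR libraries (median 455), a log2 difference of -4.79 (SE 0.424, adjusted p = 3.03e-09, -5.85 in the 3-against-9 comparison). Scd1, which desaturates stearate, ran from 39848 to 104630 in the sham libraries (median 51280.3) and from 11370.2 to 22207 in the IR libraries (median 17931). Fasn, Acly and Srebf1 fell, with log2 differences of -1.51, -1.21 and -1.50, and Mlxipl, which encodes the carbohydrate-responsive factor ChREBP, did not pass (0.16). Of 22 cholesterol synthesis genes 12 fell and 1 rose (16 and 0 after GC correction). Sc5d, an enzyme late in the pathway, ran from 8114 to 11994 in the sham libraries (median 9710.1) and from 855 to 2618 in the IR libraries (median 1791), a log2 difference of -2.53 (SE 0.165, adjusted p = 3.35e-11). Srebf2, the regulator of the pathway, was higher by 0.92 (adjusted p = 4.57e-08), but the GC-corrected difference was 0.19 (adjusted p = 0.0592).

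Fatty acid oxidation and ketogenesis genes fell in 12 of 22 cases and rose in 1 (19 and 1 after GC correction). Pdk4, which diverts pyruvate from oxidation and is induced in fasting, was the member that rose and ran from 23.1 to 53.8 in the sham libraries (median 37.2) and from 94.0 to 3887 in the IR libraries (median 778), a log2 difference of 3.92 (SE 0.544, adjusted p = 1.70e-06, 2.88 in the 3-against-9 comparison). Vnn1 ran from 674 to 1759 in the sham libraries (median 1183) and from 145 to 584 in the IR libraries (median 303). Ppara, the regulator of the pathway, fell by 1.68, and the differences were -1.90 for Hadh and -1.18 for Acadm. Cpt1a, which admits fatty acids to the mitochondrion, did not pass, with a difference of -0.07 (SE 0.121), but was lower after GC correction (-0.32, adjusted p = 0.0292). After quantile normalisation of the libraries, 9 genes of this list fell and 6 rose, with a median of -0.20.

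Of 12 genes of glucose production and sensing, 7 fell and 2 rose (9 and 2 in the 3-against-9 comparison, 9 and 0 after GC correction). Slc2a2, the glucose transporter of hepatocytes, ran from 4982 to 7109 in the sham libraries (median 6637) and from 488 to 1276 in the IR libraries (median 784), a log2 difference of -3.09 (SE 0.147, adjusted p = 4.55e-13, -2.48 GC-corrected). Gys2 and Pygl, which make and degrade glycogen, fell, with log2 differences of -2.97 and -1.89. Pck1, a key enzyme of gluconeogenesis, ran from 12552 to 28946 in the sham libraries (median 24688) and from 4794 to 27548 in the IR libraries (median 19725). It did not pass with all libraries (-0.39, adjusted p = 0.177), but was lower in the 3-against-9 comparison (-0.86, adjusted p = 0.0488) and after GC correction (-0.75, adjusted p = 0.0128). Irs2, the insulin receptor substrate, was higher by 1.21 (adjusted p = 3.46e-04), with a GC-corrected adjusted p of 0.0566.

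Nuclear-encoded respiratory chain genes fell in 22 of 24 cases and rose in none, with a median of -0.91 (23 fell after GC correction). For 19 of the 24 no IR library reached the sham range, where 19.5% of all tested genes were separated in this direction. Cox6c, a subunit of cytochrome oxidase, ran from 5116 to 10945 in the sham libraries (median 6862) and from 1045 to 1804 in the IR libraries (median 1563), a log2 difference of -2.25 (SE 0.135, adjusted p = 1.06e-11). Atp5b, a catalytic subunit of ATP synthase, ran from 14647 to 17416 in the sham libraries (median 15361) and from 9338 to 10922 in the IR libraries (median 10029). Of 15 mitochondrially encoded genes, 9 were tested and all 9 were lower, with a median of -0.65, but 7 of these had a GC value and their median turned to 0.29 after GC correction, with 4 higher and 1 lower. Their median GC content was 37.1%. mt-Co1 ran from 122536 to 203566 in the sham libraries (median 169480) and from 67983 to 93058 in the IR libraries (median 81498), a log2 difference of -1.04 (SE 0.137, adjusted p = 8.98e-07), and its GC-corrected difference was -0.32. mt-Co2, mt-Co3, mt-Atp6, mt-Atp8 and mt-Nd4l were listed at 0 or at most 1.13 in every library.

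Hepatocyte identity genes fell in 15 of 22 cases and rose in 6 (10 and 6 in the 3-against-9 comparison, 13 and 2 after GC correction), with a median of -0.59. Alb (albumin), the most abundant transcript, ran from 1621090 to 1968870 in the sham libraries (median 1796770) and from 329683 to 687471 in the IR libraries (median 495179), a log2 difference of -1.80 (SE 0.248, adjusted p = 1.56e-06). Its difference was -1.43 (adjusted p = 0.0207) in the 3-against-9 comparison. The summed list took 18.5 to 22.1% of the total in sham and 6.98 to 11.3% in IR. Apoa2 ran from 147864 to 244734 in the sham libraries (median 181847) and from 51750.2 to 101901 in the IR libraries (median 69939), and Apoa1 ran from 102788 to 251637 in the sham libraries (median 129186) and from 58209 to 125421 in the IR libraries (median 92578), with differences of -1.38 and -0.61 (for Apoa1 adjusted p = 0.00862, and 0.0636 in the 3-against-9 comparison). Apoa1 was -0.70 in the 3-against-9 comparison and -1.24 after GC correction (adjusted p = 8.72e-06 for the latter). Apoe ran from 180620 to 245530 in the sham libraries (median 204599) and from 160546 to 268322 in the IR libraries (median 211873) and did not pass (-0.01, adjusted p = 0.954), but was lower after GC correction (-0.74, adjusted p = 1.24e-04). Serpina3k ran from 58625 to 148455 in the sham libraries (median 115561) and from 88243 to 169956 in the IR libraries (median 130404) and did not pass (adjusted p = 0.288).

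The transcription factors of the hepatocyte moved in both directions. Hnf4a, the central factor of hepatocyte differentiation, ran from 3918 to 5329 in the sham libraries (median 4828) and from 6259 to 9272 in the IR libraries (median 8375), a log2 difference of 0.72 (SE 0.0941, adjusted p = 7.04e-07). Foxa3 rose by 0.60, a call lost after GC correction (0.20, adjusted p = 0.17). The nuclear receptors Nr1h4 (FXR), Nr1i3 (CAR) and Nr1i2 (PXR) fell, with log2 differences of -1.47, -1.02 and -0.94, and Cebpa fell by 0.88. The call for Nr1i3 was lost in the 3-against-9 comparison (-0.65, adjusted p = 0.0798). Of 26 complement and coagulation genes, 6 rose and 13 fell (4 and 13 in the 3-against-9 comparison, 4 and 14 after GC correction). After quantile normalisation of the libraries 9 rose and 8 fell. C3, the central complement protein, ran from 31809.7 to 60546 in the sham libraries (median 55016) and from 88628 to 230902 in the IR libraries (median 161158), a log2 difference of 1.58 (SE 0.207, adjusted p = 8.10e-07). Mbl2, a lectin that starts the complement cascade, ran from 10256 to 15149.8 in the sham libraries (median 12608) and from 1680.2 to 3517 in the IR libraries (median 1998), a log2 difference of -2.59 (SE 0.135, adjusted p = 1.46e-12). F9 and F13b fell, with log2 differences of -1.27 and -2.59.

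**Figure D5:**
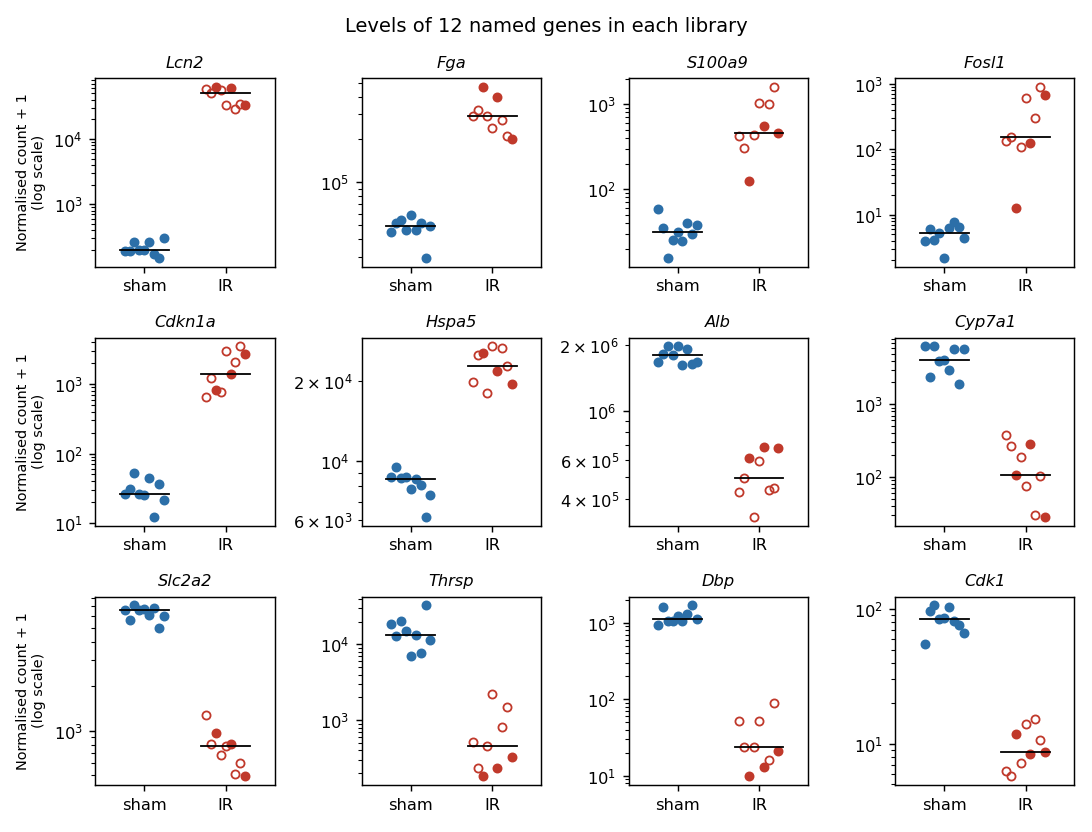
Normalised count + 1 on log scales (y axes, not starting at 0) of 12 named genes in the 9 sham (blue) and 9 IR (red) libraries; each circle is a library, open circles hold Y-linked reads, and bars mark medians. Lcn2, Fga, S100a9, Fosl1, Cdkn1a and Hspa5 are higher in IR, and Alb, Cyp7a1, Slc2a2, Thrsp, Dbp and Cdk1 are lower. The groups do not overlap for any of the 12, which are a selection from the named genes. Lcn2 and Dbp were named by a rule that requires separated groups. Of all tested genes, 19.0% were separated with IR above and 19.5% with IR below.

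Circadian clock genes moved in both directions. Of 17 tested, 5 rose and 8 fell (5 and 10 in the 3-against-9 comparison, 4 and 10 after GC correction). The time of day of sampling is not given in the sources used here. The activators Npas2 and Arntl (BMAL1) and the repressor Nfil3 rose: Npas2 ran from 0 to 3.11 in the sham libraries (median 1.15) and from 24.3 to 89.1 in the IR libraries (median 49.0), Arntl ran from 5.11 to 23.0 in the sham libraries (median 9.91) and from 119 to 223 in the IR libraries (median 169.7) and Nfil3 differed by 3.25. The output factors Dbp and Tef fell. Dbp ran from 941 to 1688 in the sham libraries (median 1122) and from 8.81 to 88.6 in the IR libraries (median 22.5), a log2 difference of -5.52 (SE 0.325, adjusted p = 8.03e-12, -6.19 GC-corrected), and Tef ran from 1959.7 to 2318 in the sham libraries (median 2121) and from 233 to 682 in the IR libraries (median 357), a log2 difference of -2.62 (SE 0.159, adjusted p = 1.23e-11). Neither overlapped between the groups, which for Dbp the rule that named it requires. The differences of Dbp and Tef were -6.44 and -3.01 in the 3-against-9 comparison. Per3, Ciart and Nr1d2 fell, with log2 differences of -4.81, -3.02 and -2.79. Nr1d1 (REV-ERB alpha) did not pass (0.07, SE 0.212), but was lower after GC correction (-0.56, adjusted p = 0.015).

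Of 9 tested glucocorticoid targets, 2 rose and 2 fell. Nr3c1, the receptor itself, ran from 805 to 1281 in the sham libraries (median 1143) and from 379 to 469 in the IR libraries (median 413), a log2 difference of -1.39 (SE 0.0816, adjusted p = 8.20e-12, -0.78 GC-corrected). Per1, a glucocorticoid-responsive clock gene, was higher by 0.81 (adjusted p = 0.00521), but by 0.07 after GC correction (adjusted p = 0.784). Fkbp5, Sgk1 and Tat did not pass, with differences of 0.28, 0.05 and -0.19. In the growth hormone and IGF axis, 3 of 11 rose and 5 fell (1 and 8 after GC correction). Igfbp1, an IGF-binding protein induced in stress and fasting, ran from 142 to 1117 in the sham libraries (median 766) and from 1881 to 15032 in the IR libraries (median 3571), a log2 difference of 2.78 (SE 0.401, adjusted p = 2.91e-06). Ghr, the growth hormone receptor, ran from 5809 to 7792 in the sham libraries (median 6945) and from 1272 to 2709.9 in the IR libraries (median 1819.9), a log2 difference of -1.93 (SE 0.122, adjusted p = 2.09e-11, -1.22 GC-corrected). Igf1 and Igfals, made by hepatocytes under growth hormone, fell, with log2 differences of -1.50 and -1.43.

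Some named genes outside the main rule had the largest differences in the 3-against-9 comparison and were picked after the values were seen. Plin4, a lipid droplet protein, ran from 2.97 to 14.7 in the sham libraries (median 11.1) and from 137 to 919 in the IR libraries (median 263) and differed by 5.38 there. Inmt, an N-methyltransferase, ran from 17472 to 37934 in the sham libraries (median 23390.4) and from 466 to 3057 in the IR libraries (median 1019) and differed by -4.85. Nrep ran from 730.1 to 1553 in the sham libraries (median 998) and from 12.4 to 69.4 in the IR libraries (median 42.9), Keg1 ran from 1217 to 2154 in the sham libraries (median 1282) and from 13.7 to 258 in the IR libraries (median 96.9) and Hsd3b2 ran from 199 to 335 in the sham libraries (median 271) and from 5.88 to 73.2 in the IR libraries (median 15.3), with 3-against-9 differences of -5.18, -5.08 and -5.01.

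Across the 35 lists other than the sex-linked transcripts, 697 distinct genes were tested and 570 were called with all libraries. Of these, 520 were called in the same direction in the 3-against-9 comparison, 494 after GC correction and 468 in both. Over all tested genes, 75.4% were called with all libraries. Of those calls, 85.5% kept their direction in the 3-against-9 comparison and, among genes with a GC value, 74.5% after GC correction. The fold difference moved by more than 1.5 times for 95 of 697 members in the 3-against-9 comparison and for 198 of the 691 with a GC value after GC correction. Moves of this size were not counted over all genes.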

How the data were processed

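Total RNA of mouse liver was sequenced in 18 libraries (9 IR, 9 sham). Per the submitters' processing notes, the tools were Trimmomatic 0.33, STAR 2.5.0a and DESeq2 1.14 with build GRCm38; how reads were assigned to genes is not given in these sources. The deposited signal is gene counts that the authors divided by size factors. Each column was a whole multiple of 1 step (100% of values within 0.001 reads), which gave depths of 10176617 to 12763837 reads per library, with 0 columns left unused. Column W1 has a step near 1.

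Genes with a value of at least 10 in at least 3 of 18 columns were tested with limma 3.58.1 (R 4.3.3; trend, log2(value + 1), Benjamini-Hochberg over 13590 genes); a gene list was described by counts and median. edgeR 4.0.16 and DESeq2 1.42.0 on the recovered reads and an exact rank sum test were alternatives. The tests were checked on simulated data. Symbols, coordinates and transcripts come from GENCODE vM21 and start regions from RefSeq. No genotype comparison was made. The comparison, the members and the gene lists were chosen with earlier results of these data known.

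Named genes were the 10 protein-coding genes with the largest and the 10 with the smallest difference among called, separated genes with a mean of at least 100, for each list the called members with the largest and smallest difference and the member with the highest mean, all IL-22 axis genes, and up to 10 genes with the highest mean; some genes this rule picks are not reported here. Other named members were taken from the lists for their known roles. The Y-linked split, the sex-biased genes, the GC correction (20 bins, GENCODE longest transcript) and the proteasome division were chosen after the data were seen.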

Additional observations from a re-analysis of the deposited data

Results flagged for a closer look

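In each group of 9 libraries, the named genes were examined for a highest or lowest library that stood apart from the nearest other by more than Dixon's limit. Chance alone flags about 1 in 20 groups, so a number of such flags among many genes is not unusual.

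The sham library headed W8 was the one flagged most often. It was low for Fga (29392, group median 49001), C3 (31810 against 55016), Fn1 (7082 against 10957), Xist (1751 against 4574), Slco1a1 (1040 against 3558) and Hsd3b5 (27.4 against 174), and it was high for Scd1 (104630 against 51280).

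In the other sham libraries, W2 was low for Cyp2b13 (1312, group median 2249), W4 was high for Stat2 (603 against 466) and low for Clec4g (1005 against 1455), and W7 was low for Rrp12 (39.9 against 65.4). W9 was high for Keg1 (2154 against 1282) and low for Sult2a1 (49.6 against 1310).

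Among the IR libraries, IR9 was low for A2m (43.8, group median 514) and Pck1 (4794 against 19725) and high for Gsta2 (58.4 against 24.6). IR5 was high for Stat3 (3843 against 2846), IR8 was high for Hspe1 (1339 against 730.3), IR1 was high for Nr3c1 (469 against 413) and IR3 was low for Fosl1 (11.8 against 153). All are single values, and no cause was tested.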

How the results depend on the processing

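Under all alternatives the counts of genes stayed within 1.5 times the reported ones, except that GC correction lowered the genes at least 2-fold higher in IR from 2244 to 1486, and to 1383 without the Y-linked libraries; 12617 rather than 13590 genes were tested there. Over all alternatives the higher genes numbered 4022 to 6335, the lower 4096 to 5621, the at least 2-fold higher 1383 to 2950, the at least 2-fold lower 1858 to 2762, and the separated genes 2168 to 3432 above and 2569 to 3521 below. Leaving out 1 library at a time gave 5083 to 5200 higher and 4970 to 5075 lower genes. Median centring moved the median of all genes by -0.12 (log2) and the share of calls that were higher from 50.7% to 45.0%. The medians of the proteasome and erythroid lists changed sign on centring (-0.08 and -0.06) and on GC correction (-0.15 and -0.50), that of the erythroid list also without the Y-linked libraries (-0.88), and that of the mitochondrially encoded list on GC correction (0.29). Quantile normalisation shifted the balance of some lists. It gave 6 higher and 9 lower for fatty acid oxidation, 9 and 8 for complement and coagulation, and 15 and 11 for the proteasome.

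Some named genes turned in direction. Without the Y-linked libraries, C6 was -0.43, Cyp2d9 -0.35 and Mup20 -1.40 (-0.27, -0.72 and -0.75 with GC correction as well). A fit with Y-linked reads as a covariate gives the same differences by construction, because no sham library was classed as holding such reads. Quantile normalisation gave 0.15 for Psmb4. GC correction gave -0.081 for Abcc3, -0.27 for Nags and -0.31 for Eng, and without the Y-linked libraries -0.22 for Nags, -0.18 for Eng and -0.080 for Per1. The cause was not tested. No paired analysis was possible because the numbers in the column headers are not tied by the labels to samples of either group. Genes near 0 in a group are limited by depth.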

Other observations

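Noncoding features behaved unlike protein-coding genes in their counts. Of 12622 tested protein-coding genes 39.2% were higher and 36.9% lower in IR. Of 205 long intergenic noncoding RNAs 29.8% were higher and 43.9% lower, of 204 antisense genes 27.9% and 40.2%, and of 110 processed pseudogenes 13.6% and 34.5%. Without a stated strand setting, reads of an antisense gene and its partner cannot be told apart, and a pseudogene can share reads with its parent. Unlike these, 94 features awaiting experimental support (GENCODE type TEC) were higher in 45.7% and lower in 24.5% of cases. These shares are descriptions, and the difference between the types was not tested.

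The make-up of the libraries also differed. More genes had a read in IR (18316 to 19741) than in most sham libraries (17430 to 18673), and the 10 most abundant genes took 17.1 to 26.7% of the total in IR and 23.6 to 27.4% in sham. By level, with the tested genes in 3 equal classes of mean level, 69.1% of the lowest, 76.6% of the middle and 80.6% of the highest class were called. By transcript length, the shortest of 5 classes (median 1436 bases) had a median log2 difference of -0.29, with 28.2% higher and 48.8% lower, and the longest class 0.11, with 41.4% higher and 32.8% lower.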
